A study of Macaca mulatta with 304 samples.

Results

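Blood drawn on Day 6 after irradiation of the upper thorax was compared with blood drawn on Day 3 from the same rhesus macaques. Every animal with a sample on both days was used, and samples were paired by the animal identifier in the labels. This gave 48 samples, 15.8% of all samples of the series, from 24 of its 28 animals. 4 further animals had a Day 6 sample without a Day 3 sample and were not used.

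Whole blood RNA of rhesus macaques (Macaca mulatta, Chinese sub-strain, 3 to 5 years old) was sequenced after ribosomal RNA had been removed. The lower dose (LD) pairs came from 12 animals given 9.8 Gy and the higher dose (HD) pairs from 12 animals given 10.7 Gy, with 12 females and 12 males in all. Each animal had also been bled 2 days before irradiation (Day -2) and on Day 9, and these samples served to place the values of Day 3 and Day 6. All animals were sedated and given ondansetron for the irradiation, and all received tramadol or buprenorphine as an analgesic from Day 4 to Day 25. The start of the analgesic therefore fell between both draws in every animal, and its part cannot be told apart from that of time after irradiation. Animals without irradiation were not analysed here on these days, so repeated handling and bleeding cannot be told apart from time either.

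Whole blood RNA is a mixture of RNA from leukocytes, reticulocytes and platelets, and platelets carry transcripts made earlier in megakaryocytes. Ionizing radiation breaks DNA and activates the transcription factor p53, which turns on genes of cell cycle arrest, repair and death, of which CDKN1A is the best known. Dividing marrow precursors and B cells are among the most radiation-sensitive cells of the body, whereas marrow outside the beam can go on making cells. In bulk blood fewer cells of a type and less RNA per cell cannot be told apart, and this holds for every difference given here.

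The 48 libraries held 3743652 to 23283000 counted reads (median 12977044.5), with a median of 12436548.5 on Day 3 and 13369332.5 on Day 6. 4 HD animals (B2003, B2005, B2503 and B2504) carried a library number of 0 on both days. Their Day 6 libraries held 3743652 to 5665059 counts, against at least 10171483 in the Day 6 libraries of the other 20 animals. The median size of the change between the days, over all genes and without regard to sign, was 0.42 to 0.72 on the log2 scale in these 4 animals and at most 0.35 in the others. The other libraries had numbers from 34 to 49 or of at least 98, and only 10 animals had both libraries in the same range. The labels do not say what these numbers stand for. The change of an animal over all genes correlated with the mean change of the other animals at -0.06 to 0.55 (median 0.44, across genes, which are not independent), and 4 LD animals (B1001, B1006, B1502 and B1505) stood at 0.05 or below. Results were therefore also computed without the 4 animals and within 1 range of numbers, and the values are given beside the genes and groups whose calls they changed.

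Levels are given as CPM, a gene's share of the counts of a library scaled by its upper quartile, and differences are log2 fold changes of Day 6 over Day 3 with their standard error (SE) from a fit with the animal as a block. A gene counted as called where the quasi-likelihood test of edgeR gave it an adjusted p (Benjamini-Hochberg) no higher than 0.05 and its fold was at least 1.5. Of 13751 genes tested, 328 were called (2.39%). Genes called higher on Day 6 made up 0.836% of all genes tested and genes called lower 1.55%. These shares stand beside the counts of called genes in every list below. Without the fold threshold 3614 genes passed the test (26.3%), 1544 higher (11.2%) and 2070 lower (15.1%). At an unadjusted p of at most 0.05, a share of 39.8% of all genes differed, 18.3% higher and 21.5% lower. The median log2 fold change over all genes was -0.01. At least 75% of the animals shared the direction for 87.8% of the genes called higher and for 96.7% of those called lower, and all 24 did for 3 and 15 genes. These genes were called from the same animals, so a shared direction is no independent evidence. Without the 4 animals with library number 0, 256 genes were called, of which 224 were among the 328, all in the same direction. Both fits share the other 20 animals, so this overlap is a description only. In the 10 animals with both libraries in the same range of numbers 1.47% of genes were called, and the share of lower genes was 47% in place of 64.9%.

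**Figure D1:**
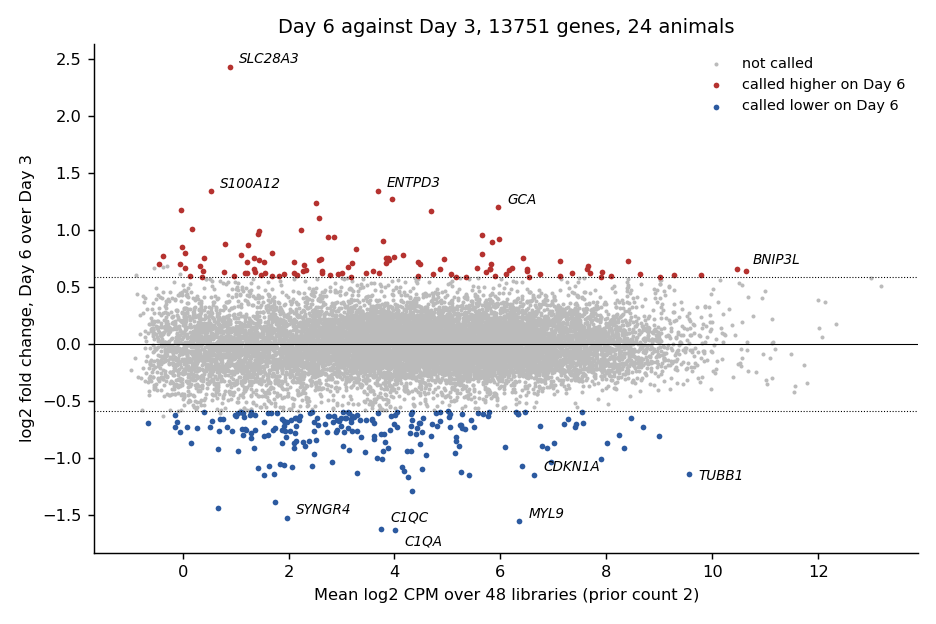
Each point is 1 of 13751 genes, with its mean log2 CPM over 48 libraries on the x axis and its log2 fold change of Day 6 over Day 3 on the y axis, and dotted lines mark a fold of 1.5. The 0.836% of genes called higher are red and the 1.55% called lower are blue, and SLC28A3 stands highest at 2.43 while C1QA and C1QC are lowest at -1.63 and -1.62.

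The 3 chains of complement C1q, which starts the classical complement pathway and is made mainly by macrophages and related cells, fell in all 24 animals, and C1QA and C1QC had the lowest log2 fold changes of all genes. The genes lie next to each other on chromosome 1 of Mmul_10, C1QA at chr1:202139634-202142742, C1QC at chr1:202131138-202135635 and C1QB at chr1:202117786-202126077, all on the minus strand. C1QA stood at 10.5 to 153 CPM on Day 3 (median 26.7) and at 2.62 to 48.8 CPM on Day 6 (median 8.61). C1QC had a median of 22.4 CPM on Day 3 (range 9.76 to 132.9) and of 7.65 CPM on Day 6 (2.05 to 26.5). C1QB had a median of 31.1 CPM on Day 3 (14.6 to 177) and of 12.1 CPM on Day 6 (2.18 to 50.8).

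The days overlapped for each chain, but 14 Day 6 values of C1QA, 16 of C1QC and 16 of C1QB lay below the lowest Day 3 value. The log2 fold change was -1.63 ± 0.12 (SE, n = 24 pairs, adjusted p = 1.19e-10) for C1QA, a level 3.09 times higher on Day 3. It was -1.62 ± 0.12 for C1QC (adjusted p = 1.89e-10) and -1.29 ± 0.13 for C1QB (adjusted p = 9.79e-08). In the 10 animals with both libraries in the same range of numbers the changes of C1QA, C1QC and C1QB were -1.73, -1.52 and -1.22, all called.

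Of 13 tested genes of the complement and tissue macrophage list, 6 fell and none rose, with a median log2 fold change of -0.47 beside -0.01 over all genes. The other called members were GPNMB, a glycoprotein of lipid-laden and phagocytic macrophages, MRC1, the mannose receptor, and LPL, lipoprotein lipase. GPNMB went from a median of 6.84 CPM to 3.52 CPM (-1.07 ± 0.13) and MRC1 from 4.66 to 2.13 CPM (-1.05 ± 0.16). LPL went from 66.2 to 43.2 CPM, a change of -0.61 ± 0.08 that lies near the fold threshold, and its call was lost on leaving out any of 4 animals (B1502, B1503, B2002 or B2505, log2 fold change -0.64 to -0.58 over all single omissions) and within 1 range of library numbers (-0.54). The median of the list was below 0 in 22 of 24 animals. 5 listed genes were too low to be tested.

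Genes of platelets and megakaryocytes made up the largest listed group of lower genes. Of 26 tested, 19 were called lower and none higher, all 26 had a negative log2 fold change, and the median was -0.72. The summed level of the list had a median of 6810 CPM on Day 3 (3419 to 14389) and of 3900 CPM on Day 6 (2408 to 12506). The list median was below 0 in 21 of 24 animals and ranged from -1.99 to 0.47. It was -0.66 without the 4 animals with library number 0 and -0.60 within 1 range of library numbers, where 10 genes were called.

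MYL9, the regulatory light chain of myosin that platelets use to contract, lies at chr10:71792990-71801068 on the plus strand. It stood at 66.8 to 298 CPM on Day 3 (median 128.1) and at 8.98 to 264 CPM on Day 6 (median 41.96). It was lower on Day 6 in all 24 animals, and 17 Day 6 values lay below the lowest Day 3 value (-1.56 ± 0.15, adjusted p = 3.01e-08). TUBB1, the beta tubulin of the platelet's marginal band, went from a median of 1072 CPM (577 to 3046) to 455 CPM (250 to 1436). It was lower in 22 of 24 animals, with 17 Day 6 values below the Day 3 range (-1.14 ± 0.11, adjusted p = 1.80e-08).

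CLU, clusterin, which platelets store in their alpha granules, went from a median of 67.7 CPM (18.6 to 250) to 25.3 CPM (10.1 to 90.2), with a change of -1.15 ± 0.13. TREML1, a receptor of platelet granules, went from 172 CPM (68.3 to 436) to 72.4 CPM (35.7 to 267), with a change of -1.03 ± 0.12. PTCRA, known for the pre-T cell receptor and listed here for its transcript in platelets, went from 5.80 CPM (1.75 to 12.1) to 2.19 CPM (0 to 6.24), with a change of -1.39 ± 0.18. The days overlapped for all 3 genes, and 6, 11 and 8 Day 6 values lay below the Day 3 range. The 7 members that were not called had changes from -0.57 (GP5) to -0.10 (TSPAN33), and PPBP, a platelet chemokine, was among them at -0.32.

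**Figure D2:**
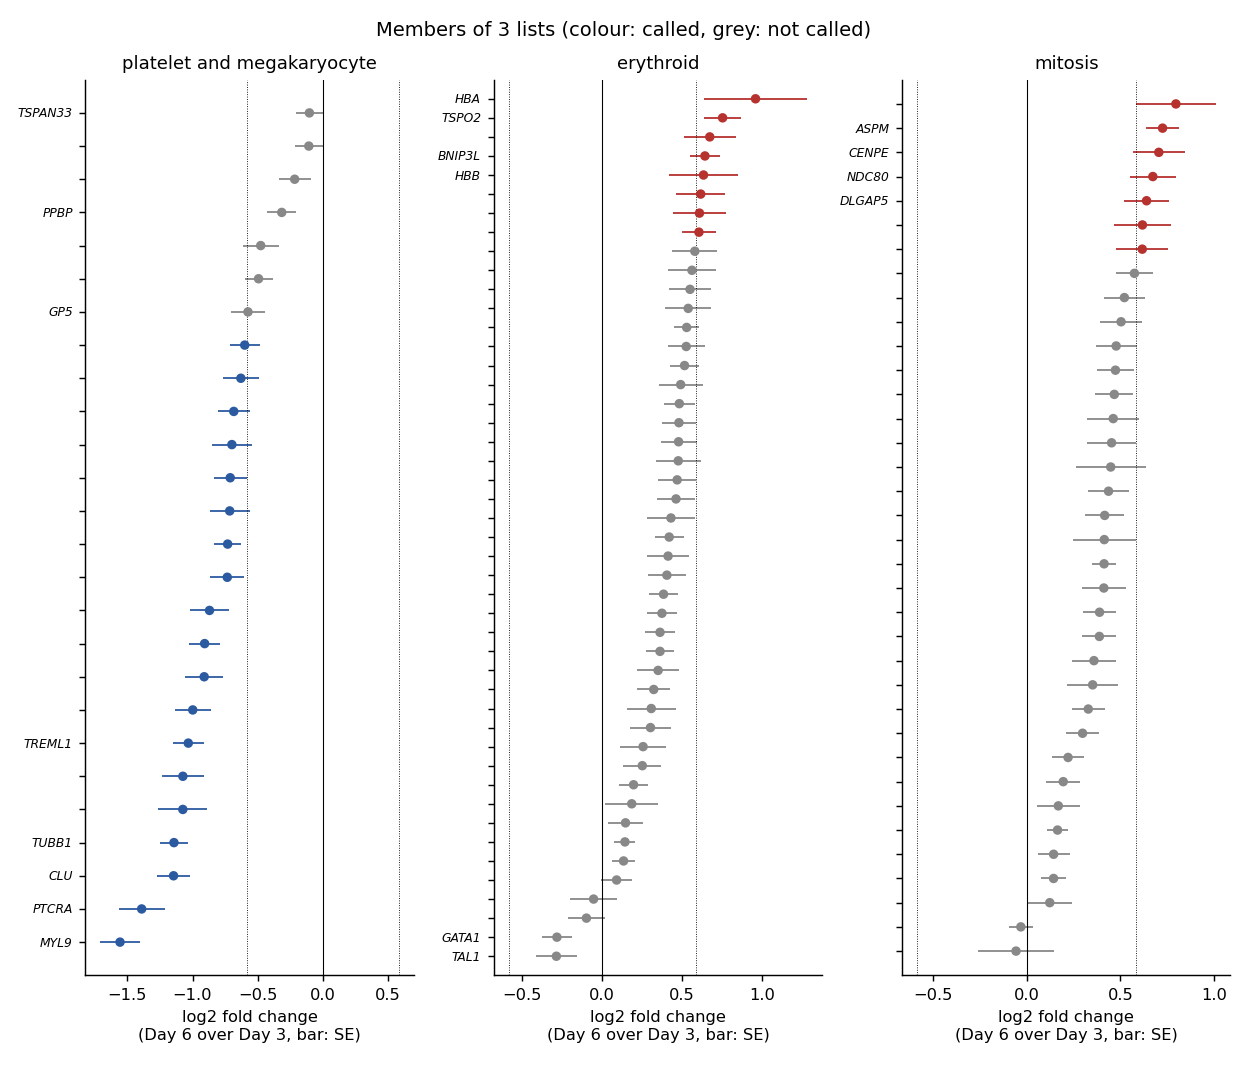
Points give the log2 fold change of Day 6 over Day 3 for each tested gene of 3 lists, bars give its SE, and dotted lines mark a fold of 1.5. In the platelet and megakaryocyte list 19 of 26 genes were called lower (blue), in the erythroid list 8 of 46 and in the mitosis list 7 of 36 were called higher (red), genes in grey were not called, and names are given for genes described in the text.

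Further genes outside the platelet list were among the 15 that fell most. SYNGR4, a synaptogyrin family protein, went from a median of 6.55 CPM on Day 3 to 1.99 CPM on Day 6 and was lower in all 24 animals (-1.52 ± 0.16). Its exons overlap those of KDELR1 and TMEM143 on the other strand, and whether reads were counted by strand is not stated, so that reads of these genes cannot be told apart there. SMIM1, which carries the Vel blood group, went from 53.04 to 22.96 CPM and CLEC4G, a lectin known from sinusoidal endothelium of liver and lymph node, from 37.4 to 16.9 CPM, both lower in 24 of 24 animals (-1.13 ± 0.09 and -1.10 ± 0.12). ECM1, an extracellular matrix protein, fell by 1.17 ± 0.14, PTPRK, a receptor tyrosine phosphatase, by 1.15 ± 0.17, and DLK1, a non-canonical Notch ligand, by 1.14 ± 0.18 on the log2 scale. These last 3 were lower in 23, 23 and 22 of 24 animals.

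CDKN1A, the p53 target that encodes the cell cycle inhibitor p21, had the smallest adjusted p of all named genes. It lies at chr4:132755001-132763844 on the minus strand. CDKN1A stood at 70.4 to 258 CPM on Day 3 (median 151) and at 36.6 to 135.2 CPM on Day 6 (median 66.5). It was lower on Day 6 in all 24 animals, and 15 Day 6 values lay below the lowest Day 3 value. The log2 fold change was -1.15 ± 0.08 (adjusted p = 1.24e-11), a level 2.21 times higher on Day 3, and the change was -1.04 within 1 range of library numbers.

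Of 32 tested p53 targets, 4 fell and none rose, beside 1.55% of all genes called lower, and the median log2 fold change was -0.14. PHLDA3, an inhibitor of AKT, went from a median of 16.7 CPM (6.91 to 27.6) to 10.1 CPM (3.92 to 19.5), with a change of -0.80 ± 0.10. EDA2R, a receptor of the tumour necrosis factor family, went from 4.25 CPM (1.84 to 10.3) to 2.32 CPM (0.748 to 6.17), with a change of -0.76 ± 0.14. DDB2, a damage sensor of nucleotide excision repair, went from 8.71 CPM (4.38 to 14.1) to 5.11 CPM (1.49 to 9.32). Its change of -0.63 ± 0.10 was called, but it lay under the fold threshold without animal B2503 (-0.58), without the 4 animals with library number 0 (-0.53) and with the range of library numbers as a covariate (-0.55), and 3 targets were called in each of these cases. Values of the days overlapped for these 3 genes. The other 28 targets were not called. When no fold was asked for, 12 of the 32 passed the test as lower and 1 as higher, beside 15.1% and 11.2% of all genes.

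**Figure D3:**
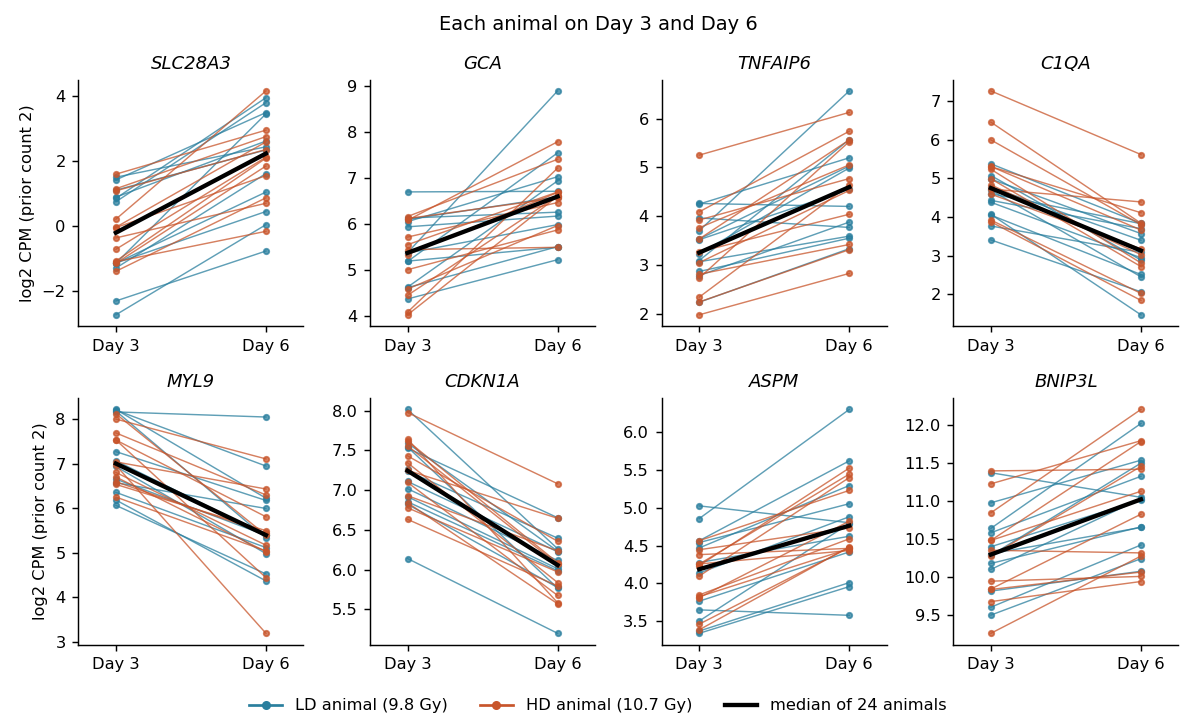
Each thin line joins the log2 CPM (prior count 2) of 1 animal on Day 3 and Day 6, blue for LD and orange for HD, and the black line joins the medians of 24 animals. SLC28A3 and GCA rose and C1QA, MYL9 and CDKN1A fell in 24 of 24 animals, while TNFAIP6, ASPM and BNIP3L rose in 22 of 24.

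The gene with the largest change was SLC28A3, which encodes the concentrative nucleoside transporter CNT3 and lies at chr15:99600490-99665148 on the minus strand. Its level was low, at 0 to 2.86 CPM on Day 3 (median 0.722) and 0.437 to 17.5 CPM on Day 6 (median 4.54). It was higher on Day 6 in all 24 animals, and 16 Day 6 values lay above the highest Day 3 value. The log2 fold change was 2.43 ± 0.21 (adjusted p = 2.37e-09), a 5.395-fold difference, and the log2 fold change was 2.38 within 1 range of library numbers. An uncharacterized gene, LOC106993816, has exons on the other strand of the same place. If reads were not counted by strand, which is not stated, its reads and those of SLC28A3 cannot be told apart there.

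ENTPD3, an ectonucleotidase that breaks down extracellular nucleotides, went from a median of 7.36 CPM (3.02 to 35.01) to 21.0 CPM (5.67 to 57.4) and was higher in 23 of 24 animals (1.35 ± 0.20). CLTCL1, a clathrin heavy chain, went from 3.02 CPM (1.05 to 18.4) to 9.91 CPM (0.898 to 21.5), also higher in 23 of 24 (1.24 ± 0.18). GCA, grancalcin, a calcium-binding protein abundant in neutrophils, went from 41.4 CPM (16.3 to 103.7) to 96.8 CPM (37.4 to 473) and was higher in 24 of 24 (1.20 ± 0.18). All 3 overlapped between the days, with 4, 4 and 8 Day 6 values above the Day 3 range.

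BCL2A1, a survival protein of the BCL2 family in activated leukocytes, went from 16.6 to 41.4 CPM (1.17 ± 0.21). ITLN1, intelectin, a lectin that binds microbial sugars, went from 4.88 to 9.98 CPM (0.94 ± 0.11), and SLC22A16, a carnitine transporter of leukocytes and testis, from 1.62 to 3.42 CPM (0.87 ± 0.16). They were higher in 21, 23 and 19 of 24 animals. PRIMA1, which anchors cholinesterase to membranes, and TMEM272, a membrane protein, were low on both days and rose by 0.99 ± 0.23 and 0.97 ± 0.21 on the log2 scale, each higher in 19 of 24. Within 1 range of library numbers BCL2A1, PRIMA1 and SLC22A16 were not called, at 0.71, 1.01 and 0.75. Exons of TMEM272 overlap those of ATP7B on the same strand, and ATP7B had a change of 0.00.

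Genes of mature neutrophils rose in part. Of 18 tested, 7 were called higher and none lower, and the median log2 fold change was 0.49, beside -0.01 over all genes. TNFAIP6, a hyaluronan-binding protein secreted in inflammation, went from a median of 9.40 CPM (3.81 to 37.9) to 24.1 CPM (6.97 to 94.5) and was higher in 22 of 24 animals (1.27 ± 0.15, adjusted p = 1.18e-06). S100A12, a calgranulin that neutrophils release, went from 0.787 CPM (0 to 5.57) to 1.58 CPM (0 to 22.2), higher in 20 of 24 (1.34 ± 0.30). PROK2, a chemoattractant of the prokineticin family, went from 10.2 to 18.02 CPM (0.91 ± 0.20), MME, the neutral endopeptidase CD10 of segmented neutrophils, from 36.6 to 60.6 CPM (0.79 ± 0.16), and FPR2, a formyl peptide receptor, from 12.8 to 25.9 CPM (0.78 ± 0.15). Day 3 and Day 6 values overlapped for all of these.

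S100A8 and S100A9, the subunits of calprotectin, were the remaining called genes of the list, named here after their values were seen, with changes of 0.92 ± 0.25 and 0.73 ± 0.21. CSF3R, the receptor of granulocyte colony-stimulating factor, and FCGR3, the low-affinity Fc receptor, had changes of -0.09 and -0.27 and were not called. The median of the list was above 0 in 21 of 24 animals and ranged from -0.85 to 1.84. It was 0.55 within 1 range of library numbers, where only 2 of the genes were called, and S100A12, PROK2, MME and FPR2 were not, at 1.08, 0.75, 0.63 and 0.82. In the 3 animals with both libraries in the lower range it lay between 0.05 and 0.07, and in the 7 animals with both in the upper range between 0.03 and 1.84.

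Of 15 tested genes of neutrophil granule proteins, 4 rose and 1 fell, with a median of 0.31. PGLYRP1, a peptidoglycan-binding protein of specific granules, went from 4.02 to 8.91 CPM (1.11 ± 0.28), CD177, a surface protein of a neutrophil subset, from 44.2 to 72.3 CPM (0.90 ± 0.21), and MMP8, neutrophil collagenase, from 0.662 to 0.976 CPM (1.01 ± 0.30). CD177 was higher in 23 animals, PGLYRP1 in 21 and MMP8 in 16. PGLYRP1 and CD177 each share exon positions with an uncharacterized gene on the other strand. Its reads there cannot be told apart from theirs if reads were not counted by strand. LCN2, lipocalin of specific granules, named after its value was seen, rose by 0.76 ± 0.27. CHIT1, a chitinase also made by activated macrophages, was the member that fell, from 4.62 to 3.16 CPM (-0.82 ± 0.13). MPO, made by granulocyte precursors in marrow, had a change of -0.09. Within 1 range of library numbers PGLYRP1 was the only gene of the list called higher, and CD177 and MMP8 were at 0.87 and 0.79.

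Of 26 tested inflammatory cytokines and receptors, 4 rose and none fell, with a median of 0.11. TNFAIP6 was counted here too, and IL18RAP, a subunit of the interleukin 18 receptor, went from 2.92 CPM (1.14 to 7.25) to 5.64 CPM (2.38 to 44.1), higher in 22 of 24 (1.00 ± 0.18). CXCL8, the neutrophil chemokine, went from 7.70 to 12.9 CPM (0.62 ± 0.20) and PTGS2, inducible cyclooxygenase, from 28.3 to 41.9 CPM (0.59 ± 0.12). The calls of CXCL8 and PTGS2 lay near the fold threshold and were lost on leaving out any of 5 and 8 animals (log2 fold changes down to 0.52 for each), and within 1 range of library numbers (0.46 and 0.49). Without the 4 animals with library number 0, and without B1003 or B2002 alone, the list had 2 called genes. IL1B and TNF had changes of 0.01 and -0.20 and were not called. Of 19 Toll-like receptors and C-type lectins, 2 rose, the lectins CLEC4D (0.476 to 1.18 CPM, 1.17 ± 0.29) and CLEC4E (2.35 to 3.77 CPM, 0.60 ± 0.20), and CLEC4E lost its call on leaving out any of 9 animals (down to 0.51). Neither was called within 1 range of library numbers (0.75 and 0.48).

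Genes of red cell precursors and reticulocytes rose in part, by small amounts. Of 46 tested, 8 were called higher and none lower, beside 0.836% of all genes called higher. A positive log2 fold change was seen for 42, and the median was 0.42. Without the fold threshold 31 of the 46 passed the test as higher, as 11.2% of all genes did. The summed level of the list had a median of 22031 CPM on Day 3 (8601 to 53606) and of 27557 CPM on Day 6 (13002 to 66872). BNIP3L, which directs the removal of mitochondria in maturing red cells, went from 1259 CPM (613 to 2703) to 2084 CPM (984 to 4739) and was higher in 22 of 24 animals (0.64 ± 0.09, adjusted p = 2.19e-05). TSPO2, an erythroid membrane protein, went from 11.4 to 22.6 CPM (0.75 ± 0.12). The days overlapped for both genes.

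The globin genes HBA and HBB, named here after their values were seen, encode the subunits of adult hemoglobin. The median of HBA went from 39.2 to 81.2 CPM and that of HBB from 230 to 464 CPM. Their changes of 0.96 ± 0.32 and 0.63 ± 0.21 (adjusted p = 0.0286 and 0.0293) were shown by 16 of 24 animals each. Reads of near-identical globin copies may be split between genes, so both values are uncertain. GATA1 and TAL1, transcription factors of early erythroid and megakaryocytic cells, had changes of -0.28 and -0.29 and were not called. The number of called erythroid genes was the least stable of the larger lists. It was 28 within 1 range of library numbers, where the list median was 0.63, and ranged from 4 (without B2005) to 12 over the omissions of single animals, with 5 without B1005, B1006 or B1502. In the 4 animals with the Day 3 library in the upper and the Day 6 library in the lower range the list median lay between -0.50 and 0.12.

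Part of the mitosis genes rose as well. Of 36 mitosis genes, 7 were called higher and none lower, beside 0.836% of all genes called higher. A positive log2 fold change was seen for 34, and the median was 0.41. Without the fold threshold 26 of the 36 passed the test as higher, as 11.2% of all genes did. Of 38 DNA replication genes none was called by edgeR or by DESeq2, 7 were higher and 4 lower at an unadjusted p of at most 0.05, near or below the 18.3% and 21.5% of all genes, and the median was 0.03. ASPM, a protein of the spindle poles, went from 18.1 CPM (9.97 to 32.4) to 27.03 CPM (11.8 to 78.9) and was higher in 22 of 24 animals (0.72 ± 0.09, adjusted p = 1.72e-06). CENPE, a kinetochore motor, went from 16.9 to 28.0 CPM (0.70 ± 0.14), NDC80, which ties kinetochores to microtubules, from 6.91 to 10.4 CPM (0.67 ± 0.12), and DLGAP5, a spindle assembly factor, from 9.09 to 14.5 CPM (0.64 ± 0.12). ASPM and NDC80 had 8 Day 6 values above the Day 3 range each, and the days overlapped for all 4. Without the 4 animals with library number 0, 3 mitosis genes were called and not NDC80 and DLGAP5 (0.56 and 0.49), and the list median was 0.39. Within 1 range of library numbers ASPM was the only one called (0.68), CENPE, NDC80 and DLGAP5 stood at 0.50, 0.51 and 0.38, and the list median was 0.29. In these 4 animals alone the list median was 0.36 to 0.91.

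The promoter of ASPM is shown because cell cycle genes are known to share a CCAAT box and the cell cycle element TTTGAA near their start. The window is made of the 300 bases before the annotated gene start in Mmul_10, read 5′ to 3′ on the gene's strand, and capitals mark TTTGAA and CCAAT on either strand.
ASPM: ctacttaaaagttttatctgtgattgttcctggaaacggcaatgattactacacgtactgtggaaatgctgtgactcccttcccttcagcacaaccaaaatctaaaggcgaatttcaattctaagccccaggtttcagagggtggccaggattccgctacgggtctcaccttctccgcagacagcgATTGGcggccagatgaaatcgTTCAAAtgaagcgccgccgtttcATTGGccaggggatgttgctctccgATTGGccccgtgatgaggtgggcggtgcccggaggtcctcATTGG
The window of ASPM is chr1:54537359-54537658 (minus strand). It held 4 CCAAT boxes, all on the other strand, and 1 TTTGAA, likewise on the other strand. Of the 7 called mitosis genes ASPM held the most matches, so its window is not typical of them. CENPE and NDC80 held neither motif, and DLGAP5 held CCAAT only. TTTGAA was present in 28.6% of the 7 called and in 33.3% of all 36 tested mitosis genes, and in 13.3% of the windows of all 13651 tested protein-coding genes. CCAAT was present in 42.9%, 61.1% and 34.7% of them. A match is a description of the letters and not evidence of binding.

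Of 8 called erythroid genes, 1 held the GATA motif AGATAA in this window (12.5%), beside 21.7% of all 46 tested erythroid genes and 8.52% of all genes. For interferon response genes the interferon element, GAAA and again GAAA after 2 bases of any kind, searched on both strands, was present in 33.3% of 36 tested genes and in 3.40% of all. The only called member of that list, SAMD9, an interferon-induced antiviral protein, holds it in the window chr3:113006708-113007007 (plus strand), shown for this reason with the motif in capitals.
SAMD9: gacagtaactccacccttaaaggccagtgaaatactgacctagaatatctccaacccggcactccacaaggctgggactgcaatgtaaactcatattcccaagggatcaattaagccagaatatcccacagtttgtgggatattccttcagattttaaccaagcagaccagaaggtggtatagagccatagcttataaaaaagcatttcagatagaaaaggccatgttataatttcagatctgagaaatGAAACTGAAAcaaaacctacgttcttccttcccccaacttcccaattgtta
SAMD9 stood at 86.3 to 558 CPM on Day 3 (median 155) and at 70.3 to 666 CPM on Day 6 (median 256). The days overlapped, and the gene was higher in 19 of 24 animals (0.66 ± 0.16, adjusted p = 0.00327). It was not called without the 4 animals with library number 0 (0.55) or within 1 range of library numbers (0.40). The median of the 36 interferon genes was 0.04, but it ranged from -1.11 to 1.30 between animals, above 0 in 13 and below 0 in 11.

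**Figure D4:**
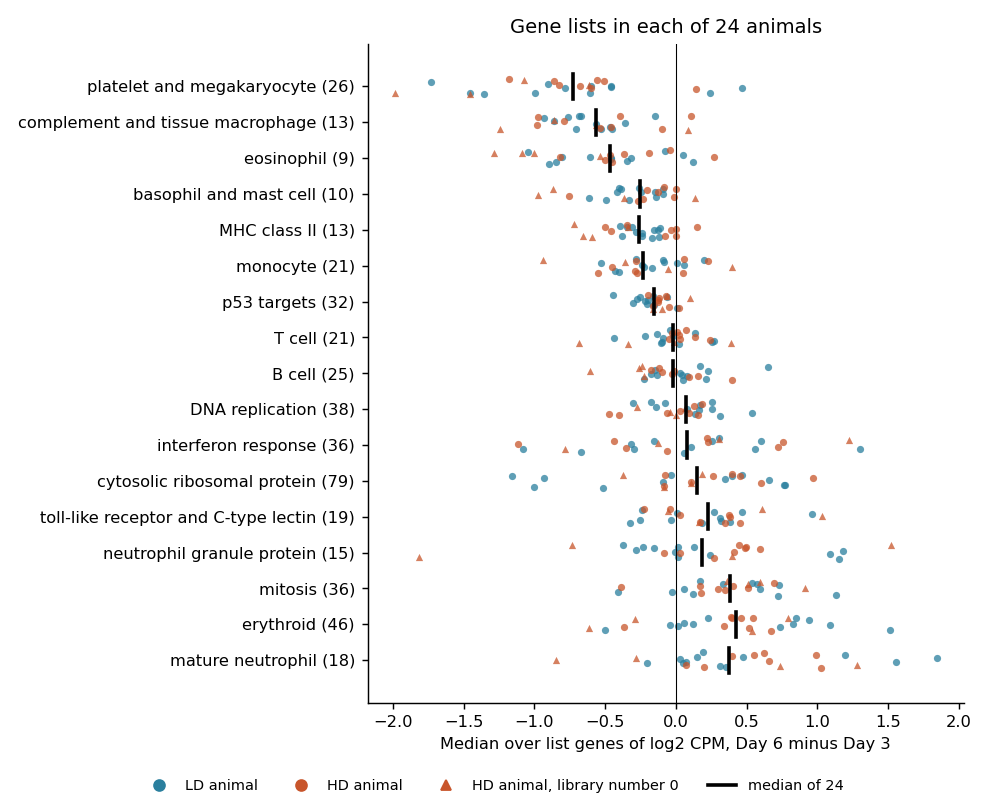
Each point is 1 animal and gives the median over the tested genes of a list (number in brackets) of its log2 CPM on Day 6 minus Day 3, with LD in blue, HD in orange and triangles for the 4 animals with library number 0. Black bars are medians of 24 animals, and the platelet list lies below 0 in 21 and the mature neutrophil and mitosis lists above 0 in 21 animals each.

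Genes of eosinophils and of basophils or mast cells fell in part. Of 9 tested eosinophil genes 4 were called lower and none higher, with a median of -0.44. EPX, eosinophil peroxidase, went from a median of 8.32 CPM (0.212 to 89.7) to 2.58 CPM (0 to 43.9), lower in 18 of 24 animals (-0.97 ± 0.25, adjusted p = 0.00620). IL5RA, the receptor chain that binds interleukin 5, went from 8.37 to 4.93 CPM (-0.71 ± 0.12), SMPD3, a neutral sphingomyelinase, from 28.2 to 15.7 CPM (-0.69 ± 0.11), and RNASE3, eosinophil cationic protein, from 1.24 to 0.684 CPM (-0.69 ± 0.24). RNASE3 lost its call on leaving out any of 6 animals, with an adjusted p of up to 0.0524. The days overlapped for all 4. Exons of SMPD3 overlap PRMT7 on the other strand. 2 eosinophil genes were called without the 4 animals with library number 0 and none within 1 range of library numbers. In the 4 animals alone the list median ran from -1.29 to -0.54.

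Of 10 basophil and mast cell genes 2 fell, with a median of -0.42, GATA2, a transcription factor of basophils, mast cells and progenitors, from 63.2 to 33.8 CPM (-0.73 ± 0.09, adjusted p = 1.21e-06, lower in 23 of 24 animals) and GCSAML from 3.67 to 2.13 CPM (-0.60 ± 0.12). The call of GCSAML was lost on leaving out any of 7 animals (up to -0.56), in DESeq2, without the 4 animals with library number 0 (-0.51) and within 1 range of library numbers (-0.40). GATA2 was also the only called gene of 12 tested hematopoietic progenitor genes, whose median was 0.04.

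Of 21 monocyte genes 3 fell and none rose, with a median of -0.26. CSF1R, the receptor of colony-stimulating factor 1, went from 445 CPM (246 to 889) to 282 CPM (169 to 555), lower in 21 of 24 animals (-0.65 ± 0.10). STAB1, a scavenger receptor, went from 29.0 to 16.2 CPM (-0.69 ± 0.10) and KLF4, a transcription factor of monocytes, from 89.2 to 64.9 CPM (-0.62 ± 0.10). The days overlapped, with 9, 11 and 9 Day 6 values below the Day 3 range. None of the 3 was called without the 4 animals with library number 0, where the changes were -0.54, -0.58 and -0.58, or within 1 range of library numbers (-0.36, -0.46 and -0.46), and KLF4 also lost its call without B1503, B2005 or B2505. Exons of STAB1 overlap those of NT5DC2 on the other strand. LYZ and CD14, major monocyte genes, had changes of -0.06 and -0.29 and were not called. Of 13 genes of MHC class II antigen presentation none was called by edgeR or by DESeq2. 9 of them passed edgeR's test as lower without the fold threshold, as 15.1% of all genes did, 11 were lower at an unadjusted p of at most 0.05, as 21.5% of all genes were, and the median was -0.27. MAMU-DMA, which helps load peptides, was the first of them by p, from 114.2 to 96.3 CPM (-0.34 ± 0.06).

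The B cell, T cell and cytotoxic lists had medians near that of all genes, while the plasma cell and the regulatory and checkpoint lists had 0.11 each. Without the fold threshold 6 of 15 regulatory and checkpoint genes passed the test as higher and none as lower, beside 11.2% and 15.1% of all genes. In the 4 animals with library number 0 the B cell list ran from -0.61 to -0.22 and the cytotoxic list from -0.51 to -0.33. Their medians in the other animals were 0.04 and 0.10. Of 25 B cell genes and 21 T cell genes none was called by edgeR or by DESeq2, with medians of 0.00 and -0.04. At an unadjusted p of at most 0.05, 5 B cell genes were higher and 4 lower, and 3 T cell genes were higher and 4 lower, beside 18.3% and 21.5% of all genes. The summed B cell level had a median of 915 CPM on Day 3 (404 to 1998) and of 959 CPM on Day 6 (459 to 2558), beside 2308 CPM on Day -2. CR2, the complement receptor of B cells, had the smallest p, from 14.9 to 19.1 CPM (0.31 ± 0.07). CD4, the coreceptor of helper T cells, had the smallest p of its list, from 190 to 164 CPM (-0.23 ± 0.06, lower in 19 of 24 animals). JCHAIN, the joining chain of polymeric antibodies, was the only called gene of 16 in the plasma cell list, from 120.7 CPM (39.6 to 275) to 165 CPM (55.8 to 661), higher in 17 of 24 animals (0.73 ± 0.18). CTLA4, an inhibitory receptor of T cells, went from 4.87 to 7.35 CPM (0.64 ± 0.13) and was the only called gene of 15 in the regulatory and checkpoint list. KLRB1, the receptor CD161, was the only one of 23 in the cytotoxic list, from 13.01 to 13.8 CPM (0.62 ± 0.16). JCHAIN and CTLA4 were not called without the 4 animals with library number 0 (0.57 and 0.49), CTLA4 was not called without B2005 or B2504 alone (0.58 at the lowest), and KLRB1 lost its call without B1003, B1004 or B2501 (0.58 at the lowest). Within 1 range of library numbers JCHAIN, CTLA4 and KLRB1 were not called either, at 0.32, 0.35 and 0.27.

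Markers of other cells that a blood draw could carry along were summed as well. Of 10 endothelial genes 5 were tested. The summed level of all 10, tested or not, had a median of 142 CPM on Day 3 (93.9 to 263) and of 129 CPM on Day 6 (48.2 to 265). On Day 3 against Day -2 the endothelial list had a median of 1.28, with 4 of 5 genes called higher, and the complement and tissue macrophage list 1.45, with 11 of 13. Between Day 6 and Day 3, CLDN5, a tight junction protein, was the only endothelial gene called, from 26.6 to 16.2 CPM (-0.78 ± 0.11). Of 12 keratinocyte genes 5 were tested, and the summed level of all 12 had medians of 13.8 and 16.3 CPM. TP63 was called higher from 1.42 to 1.75 CPM (0.63 ± 0.15), a call lost without B2005 (0.57) and within 1 range of library numbers (0.62). The part of such cells in the results above was not tested. FOSB, an immediate early gene, fell from 19.5 CPM (13.3 to 34.4) to 12.3 CPM (7.58 to 21.98), lower in 22 of 24 animals (-0.62 ± 0.09), and was the only called gene of 22 in its list. Without the 4 animals with library number 0 its change was -0.56 and was not called.

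The 4 draws of the same animals were then set side by side in 1 fit over Day -2, 3, 6 and 9. These contrasts share samples with each other, so only the values are given. Against Day -2, 1599 genes were called on Day 3 (11.6%, with 6.73% higher and 4.9% lower) and 1565 on Day 6 (11.4%, with 5.93% higher and 5.45% lower). Between Day 9 and Day 6, 693 were called (5.04%, with 3.38% higher and 1.66% lower on Day 9). The platelet list had medians of 1.11 on Day 3 against Day -2, 0.25 on Day 6 against Day -2 and -0.69 on Day 9 against Day 6, with 25 genes called higher, 4 called higher and 19 called lower. MYL9 had medians of 41.1, 131.97, 43.2 and 29.3 CPM on Day -2, 3, 6 and 9, and TUBB1 of 425, 1105, 469 and 352 CPM. Both were thus high on Day 3, and Day 6 did not pass the test against Day -2 for either (0.17 ± 0.17, adjusted p = 0.390, and 0.27 ± 0.12, adjusted p = 0.0564).

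The C1q chains kept part of their rise on Day 6. C1QA had medians of 3.76, 27.5, 8.87 and 4.45 CPM over the 4 draws, with 3.21 ± 0.16 on Day 3 and 1.54 ± 0.16 on Day 6 against Day -2, and -0.90 ± 0.15 on Day 9 against Day 6. CDKN1A had medians of 48.3, 156, 68.4 and 46.2 CPM, with 1.60 ± 0.08 on Day 3 and 0.43 ± 0.08 on Day 6 against Day -2. EDA2R had medians of 0.641, 4.38, 2.39 and 1.88 CPM, with changes of 2.68 and 1.93 against Day -2.

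Genes that rose from Day 3 to Day 6 had different levels before irradiation. SLC28A3 had medians of 2.79, 0.744, 4.67 and 2.103 CPM, so that Day 3 lay below Day -2 (-1.74 ± 0.27, adjusted p = 8.01e-08) and Day 6 above it (0.81 ± 0.24, adjusted p = 0.00304). CLTCL1 had medians of 8.28, 3.12, 10.2 and 6.48 CPM, low on Day 3 (-1.47 ± 0.23), and on Day 6 its difference from Day -2 was -0.19 ± 0.23. ENTPD3 had medians of 14.0, 7.58, 21.7 and 15.2 CPM and TNFAIP6 of 16.1, 9.69, 24.8 and 21.6 CPM. For the mature neutrophil list the medians were -0.16, 0.51 and -0.50 for Day 3 against Day -2, Day 6 against Day -2 and Day 9 against Day 6. The erythroid list had 0.82, 1.21 and -0.14 for the same contrasts and the mitosis list 0.32, 0.75 and -0.20. BNIP3L had medians of 718, 1296, 2146 and 1768 CPM and ASPM of 12.4, 18.6, 27.8 and 24.5 CPM, both highest on Day 6. The B cell list had -1.34, -1.25 and 0.28.

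**Figure D5:**
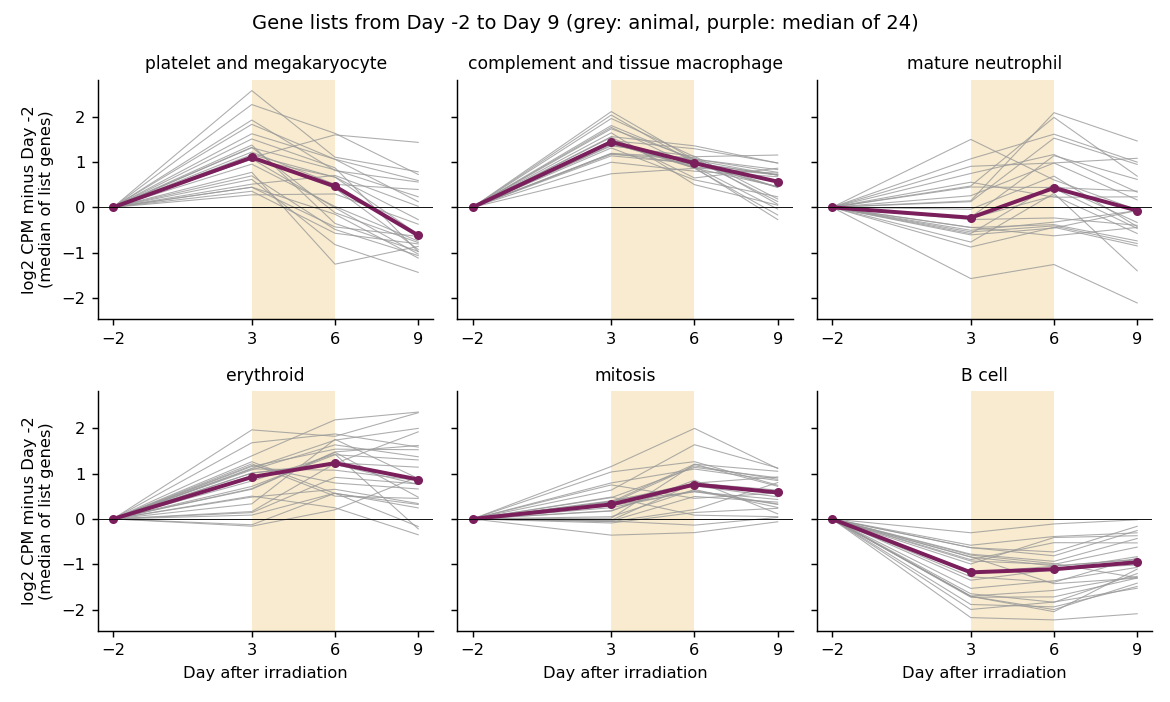
Grey lines follow each of 24 animals over Day -2, 3, 6 and 9 (x axis) and give the median over list genes of log2 CPM minus that animal's Day -2 value (y axis), with the median of the animals in purple and the span from Day 3 to Day 6 shaded. The platelet list stood at 1.10 on Day 3 and 0.46 on Day 6, the mature neutrophil list at -0.23 and 0.43, and the B cell list at -1.18 and -1.11. These are medians over animals and differ from the list medians in the text, which are taken over genes of the fitted changes.

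LD and HD animals were compared by fitting each dose and by testing the difference between the changes. In LD animals 178 genes were called (1.29%, with 0.393% higher and 0.902% lower), and in HD animals 507 (3.69%, with 1.4% higher and 2.28% lower). The interaction of day and dose was called for 0 genes in edgeR's test (smallest adjusted p 0.576), and for 0 genes in DESeq2. Of 13751 genes, 1128 had an unadjusted p of at most 0.05 in edgeR's test. C1QA was at -1.48 ± 0.16 in LD and -1.78 ± 0.16 in HD animals, with MYL9 at -1.45 ± 0.18 and -1.67 ± 0.22, CDKN1A at -1.11 ± 0.09 and -1.18 ± 0.11, and SLC28A3 at 2.49 ± 0.30 and 2.36 ± 0.28. The smallest interaction p belonged to KHDRBS3, an RNA-binding protein, at -0.96 ± 0.22 in LD and 0.51 ± 0.26 in HD animals. TMEM200B followed with 0.35 ± 0.13 and -0.57 ± 0.18 and CACNB1, a calcium channel subunit, with 0.08 ± 0.08 and -0.41 ± 0.11. All 4 animals with library number 0 were HD animals. All 4 animals whose change correlated with the mean of the others at 0.05 or below were LD animals.

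By sex, 1.89% of genes were called in females (0.247% higher and 1.64% lower) and 1.7% in males (0.931% higher and 0.771% lower). The interaction of day and sex was called for 0 genes in edgeR's test (smallest adjusted p 1.00) and in DESeq2, with 287 of 13751 genes at an unadjusted p of at most 0.05. The platelet list had a median of -0.89 in females and -0.60 in males, the erythroid list 0.29 and 0.56 and the mitosis list 0.33 and 0.49. The smallest interaction p belonged to ADM, adrenomedullin, at -0.82 ± 0.27 in females and 0.32 ± 0.20 in males, IVD, an enzyme of leucine breakdown, at 0.08 ± 0.07 and -0.23 ± 0.07, and SYCE1L at 0.47 ± 0.18 and -0.37 ± 0.19. No gene's difference between the sexes passed the adjustment, and differences between the list medians were not tested.

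The study chose sets of genes for its Day 3 and Day 6 models of dose, survival and pleural effusion. It did so on these same samples, so that the sets are no independent evidence. It reports no significant accuracy for models of Day 3 or Day 6 alone, and significant prediction of dose and survival only with days pooled. Of 40 tested genes of its Day 3 set, 16 were called lower on Day 6 than on Day 3 and none higher, with a median log2 fold change of -0.46. Of 48 tested genes of its Day 6 set, 3 were called lower and none higher, with a median of -0.08. Over all genes 1.55% were called lower and 0.836% higher, with a median of -0.01. Besides genes described above, the called members included EPHA2, an ephrin receptor (-1.09 ± 0.19), SDC3, a syndecan (-0.77 ± 0.16), TIMP1, an inhibitor of matrix metalloproteinases (-0.72 ± 0.10), NDRG2, a stress-responsive gene (-0.68 ± 0.08), and HTR7 and PLLP, a serotonin receptor and a membrane protein of myelin, at -0.60 ± 0.12 and -0.60 ± 0.11. TIMP1 went from a median of 43.5 CPM (22.7 to 64.3) to 26.1 CPM (11.9 to 42.2) and was lower in 23 of 24 animals, and its change was -0.56 and not called without the 4 animals with library number 0. HTR7 and PLLP lay near the fold threshold and lost their calls on leaving out any of 9 and 6 animals (up to -0.54 and -0.57), and PLLP also without the 4 animals with library number 0 (-0.52). Within 1 range of library numbers EPHA2, SDC3, HTR7 and PLLP were not called, at -0.72, -0.60, -0.50 and -0.58. Exons of SDC3, CACNB1, IVD and SYCE1L overlap those of genes on the same strand, so that reads cannot be told apart there. Exons of HTR7 and TMEM200B overlap those of genes on the opposite strand, where the same holds if reads were not counted by strand.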

How the data were processed

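Blood was drawn into RNA stabilizing tubes, and stranded paired-end libraries were made after ribosomal depletion. According to the submitters' processing notes, reads were trimmed with cutadapt 2.10, aligned with STAR 2.7.6a to Mmul_10 and counted with Subread 2.0.1. The strand setting of the counting is not stated. The authors deposited whole read counts of 21070 genes, not normalized, which were used for all results. The authors also deposited log2 values of 16730 genes scaled by upper quartile, used as an alternative only. The labels name each sample's animal, and deviations of an animal's samples from their day means correlated at 0.05 to 0.74 (median 0.53, other animals -0.02), so animals were paired.

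Genes reaching 3 counts in 80% of all 304 libraries were tested (13751) with edgeR 4.0.16 in R 4.3.3, upper quartile scaling, terms for animal and day, and Benjamini-Hochberg adjustment. SE is the log2 fold change over the root of its F statistic. Alternatives used DESeq2 1.42.0, limma 3.58.1 and other scalings, filters and samples. P-values set the change from Day 3 to Day 6 against its spread among the 24 animals. In fits of 1 dose or sex they rest on 12 animals, and in the library number subsets on 20 or 10. The fit without the replicate block left the pairing out. Python 3.11.15, pandas 2.3.3 and Matplotlib 3.10.9 served tables and figures. Positions and promoters came from the RefSeq annotation of Mmul_10, in which all 21070 symbols were found.

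Named were the 15 highest and 15 lowest called genes whose direction at least 75% of animals shared, up to 4 called members of each list (or the 1 with the smallest p), the 3 smallest interaction p-values per factor, and called genes of the study's Day 3 and Day 6 sets, while genes named as not called beside them, and those said to be so, were chosen after their values were seen. Some genes and sequences are not reported here. Members and gene lists were chosen with earlier results of these data known.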

Additional observations from a re-analysis of the deposited data

How the results depend on the processing

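The 328 genes called between Day 6 and Day 3 (2.39% of those tested) became 327 with TMM scaling, 342 in DESeq2, 410 without a filter on low counts, 258 with at least 10 counts asked for, 365 with the filter on these samples only, 341 with limma on the deposited log2 values, 344 in 1 fit over 4 days, 256 in the 20 animals with library numbers above 0 and 277 in these with the number range as a covariate. The share was 1.47% in the 10 animals within 1 range and 26.3% by adjusted p alone, and it ranged from 2.15% to 2.73% over the omissions of single animals. Without the replicate block, which pairs samples by animal, 263 genes were called in all, 0.0436% in LD (1.29% paired), 1.77% in HD (3.69% paired), 0.109% in females (1.89% paired) and 0.0727% in males (1.7% paired). In LD animals DESeq2 called 1.95%. The differences by dose and sex had 0 calls in edgeR with both scalings and in DESeq2, and 1128 and 287 of 13751 genes at an unadjusted p of 0.05.

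Within 1 range of library numbers, where fewer animals remained, 1 granule, 2 mature neutrophil, 0 eosinophil (6 eosinophil genes were lower at an unadjusted p in the full set), 10 platelet, 1 mitosis and 2 inflammatory genes were called, but 28 erythroid ones, for which the cause was not tested. Without the animals with library number 0 these were 2 eosinophil, 3 mitosis and 2 inflammatory genes, and 3 mitosis genes with the covariate. Without the replicate block 1 eosinophil and 1 erythroid gene were called. Over the omissions of single animals the counts ran from 5 to 6 for complement, 3 to 4 for eosinophil, 4 to 12 for erythroid, 2 to 4 for inflammatory, 7 to 8 for mature neutrophil, 5 to 8 for mitosis, 3 to 4 for granule, 3 to 4 for p53 and 17 to 20 for platelet genes. No named gene that was called changed its sign under the alternatives run for it. Of the values of named genes under these alternatives, 594 kept their side of the threshold, 81 lost it and 3 gained it. The lowest Day 6 libraries held 3743652 to 5665059 counts, which limits what low genes can show in those 4 animals.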

Other observations

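Several further lists had no called gene but held members that passed edgeR's test below the fold of 1.5. For most of these lists the member with the smallest p is given here. IL7R, the interleukin 7 receptor chain of naive lymphocytes, went from a median of 470 to 628 CPM (0.43 ± 0.08, higher in 22 of 24 animals). RORA, a nuclear receptor of the circadian clock, went from 83.3 to 101.4 CPM (0.38 ± 0.07) and was higher in 23 of 24 animals, 10 of them above the Day 3 range. SGK1, a kinase induced by glucocorticoids, went from 85.99 to 110 CPM (0.41 ± 0.08), and DNAJA1, a chaperone of the HSP40 family, from 94.0 to 129 CPM (0.42 ± 0.10), each higher in 21 of 24.

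CX3CR1, the fractalkine receptor of patrolling monocytes and cytotoxic lymphocytes, went from 318 to 241 CPM (-0.39 ± 0.08), lower in 19 of 24 animals. PLD4, an endosomal exonuclease of dendritic cells, went from 87.1 to 64.5 CPM (-0.39 ± 0.09). GINS1, of the replicative helicase, went from 15.2 to 21.3 CPM (0.31 ± 0.08). Exons of GINS1 and DNAJA1 overlap uncharacterized genes on the other strand. MXI1, an antagonist of MYC in the hypoxia and glycolysis list, went from 152 to 189 CPM (0.42 ± 0.09), higher in 19 of 24 animals, and within 1 range of library numbers it was called (0.65). SDHA, a subunit of succinate dehydrogenase, went from 102.8 to 81.1 CPM (-0.25 ± 0.05), lower in 21 of 24. PSMC2, an ATPase of the proteasome, went from 56.6 to 72.4 CPM (0.29 ± 0.07) and PSMB10, a subunit of the immunoproteasome, from 67.7 to 61.04 CPM (-0.23 ± 0.06). RPL22L1, a paralog of a ribosomal protein, went from 13.6 to 23.9 CPM (0.46 ± 0.15), but its value was -0.04 within 1 range of library numbers. Of 29 DNA repair genes, 7 passed the test as higher and 4 as lower, beside 11.2% and 15.1% of all genes. The 79 tested ribosomal protein genes had a median of 0.10, and their median by animal ran from -1.16 to 0.97.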
